A study of Homo sapiens with 5 samples.

Results

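A set of 10 genes for activating receptors of natural killer (NK) cells was followed in the human NK cell line NK92MI after inhibition of the histone methyltransferases EZH2 and EZH1. The members were NCR1, NCR2, CD226, CD244, FCGR3A, KLRC2, KLRC3, SLAMF6, SLAMF7 and CRTAM, chosen by name, and all 10 were found, each on 1 of the 57221 rows of the count table. NK92MI is an established line that makes its own interleukin 2 from an introduced gene. Total RNA was used. One group (2 libraries) was kept in the solvent DMSO, and the other (3 libraries) received 10 µM UNC1999, an inhibitor of EZH2 and EZH1, for 48 h. The cells are the same line in both groups, and whether each library is a culture of its own is not labelled. The p-values therefore cover the spread among these 5 libraries, which may be technical.

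Activating receptors let an NK cell recognise stressed, infected or antibody-coated cells. Most have short tails and pass their signal through small adaptor proteins in the membrane, whereas receptors of the SLAM family, such as CD244, recruit the adaptors SAP (SH2D1A) and EAT-2 (SH2D1B) to their own tails. Killing depends on the sum of these signals and of those from inhibitory receptors such as TIGIT and NKG2A (KLRC1), some of which bind the ligands of activating ones. EZH2 and EZH1 methylate lysine 27 of histone H3, a mark of repressed genes that often spreads over promoters rich in CpG dinucleotides.

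After UNC1999, CD244 fell to 0.682 of its DMSO level and NCR2 to 0.812. On the log2 scale these were -0.55 and -0.30, but -0.19 and -0.18 with the offsets for GC content and length described below. The NCR2 fall missed the threshold in 11 of 16 alternative settings, and the CD244 fall in 1. No member passed the test upwards, and 6 of the 8 members with enough reads were not called. Called means an adjusted p under 0.05 in edgeR's quasi-likelihood test over all genes. Thus 0 of 8 tested members were higher, beside 15.7% of all 13075 tested genes, and 2 of 8 were lower, beside 19.5% (35.2% in either direction). Without adjustment, 5 of 8 had p under 0.05 in edgeR (CD244, NCR2, SLAMF7, CD226 and FCGR3A), beside 44.1% of all tested genes. The DESeq2 Wald test gave no adjusted p for CD226 and KLRC2. Of the other 6 it called 0 higher and 1 lower, beside 15% and 17.1% of the 11300 genes with an adjusted p. The median log2 fold change of the 8 was -0.04, beside -0.01 for all tested genes. KLRC3 and CRTAM had too few reads to be tested. CD226 (1.09 on the log2 scale) passed the filter only through UNC1999 libraries, the group where it is higher. It is among the 5 of 8 and enters the median, which it raises. Neither figure is therefore read as likeness to all genes, and the tested members do not stand for the whole set.

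EZH2 had 105.7 and 104.3 CPM in DMSO and 111.0, 135.5 and 114.5 CPM in UNC1999 (0.20 on the log2 scale, edgeR adjusted p = 0.178; 0.13 with offsets), and EZH1 was called lower (-0.31, edgeR adjusted p = 0.0479; -0.01 with offsets). Total counts lay between 8442908 and 8748106 per library. Of 9 NK markers 7 (among them NCAM1, GNLY, NKG7, PRF1 and GZMB) had 10 counts or more, while NCR3 was at 0 and TYROBP had at most 7. Their summed level was 4810 to 5042 CPM (counts scaled to library size) in DMSO and 4525 to 5061 CPM in UNC1999. Of the T cell markers CD3E and TRAC were present, while CD3D, CD3G, CD4 and CD8B were at 0 in all libraries. The summed T cell level was 755 to 793 CPM in DMSO and 651 to 744 CPM in UNC1999. CD3E, the more abundant, had -0.10 (edgeR adjusted p = 0.495) and was called higher with offsets for GC content and length (0.27, edgeR adjusted p = 0.00658). TRAC was called lower (-0.37, edgeR adjusted p = 0.00814) and had -0.01 with offsets. The part of these markers in the receptor results was not tested. Erythroid and stromal markers did not exceed 0.339 CPM in sum, 1 of 5 B cell markers (PAX5) reached 10 counts, and 2 of 6 myeloid markers (ITGAX and CSF1R) did. UNC1999 replicate 2 stood apart, with a chi-square per degree of freedom of 7.47 against replicate 1 and 8.77 against replicate 3, whereas replicates 1 and 3 gave 1.81. The 2 DMSO libraries gave 3.14.

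Fold changes in this comparison moved with the GC content of the transcripts. Genes were split by GC content into 10 deciles of equal size. The median log2 fold change was 0.41 in decile 1, the lowest in GC, and -0.36 in decile 6 (48.0% to 51.2% GC). It rose again to 0.16 in decile 10. Whether this trend is technical or comes with the treatment was not tested, so offsets may also remove real change. Values with GC and length offsets, fitted to take such trends out of each library, are therefore also given. They use the longest GENCODE 29 transcript of each gene, which need not be the one made in these cells. With offsets 1 of 8 members was higher (FCGR3A), beside 15.1% of 11026 genes, and 1 of 8 was lower (CD244), beside 19.1% (34.2% in either direction). The members' median, in which CD226 again takes part, was then 0.07.

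The members lie on 6 chromosomes, all as protein-coding genes (GENCODE 29, GRCh38). The natural cytotoxicity receptors are NCR1 at chr19:54906150-54916140 and NCR2 at chr6:41335655-41350887, both on the plus strand. CD226 is at chr18:69831158-69961803 on the minus strand and CRTAM at chr11:122838500-122872639 on the plus strand. KLRC2 (chr12:10426854-10442300) and KLRC3 (chr12:10412312-10420595) are neighbours on the minus strand. On chromosome 1 FCGR3A (chr1:161541759-161550737, minus strand) lies beyond the cluster of SLAM genes. In that annotation 22.5% of the KLRC2 exon bases and 56.8% of those of KLRC3 overlap a further gene on the same strand, AC068775.1, whereas the exons of NCR1, NCR2, CD244, FCGR3A, SLAMF6, SLAMF7 and CRTAM overlap no other gene.

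Expression was concentrated in 3 members. SLAMF7, CD244 and NCR2 supplied 94.8% to 96.8% of the summed CPM of all 10 in each library. That sum was 685 and 705 CPM in DMSO and 512, 591 and 544 CPM in UNC1999, so the UNC1999 libraries lay below both DMSO libraries. Per kilobase of annotated exon, levels in DMSO were 90.2 CPM for NCR2, 82.9 for CD244 and 67.4 for SLAMF7. The next were SLAMF6 at 3.45, FCGR3A at 2.34, NCR1 at 1.66 CPM per kilobase and KLRC2 with 1.27 to 1.33. KLRC3 had 0.426 and CD226 0.0444 CPM per kilobase, and CRTAM was at 0. Ranges of the DMSO libraries overlapped only for NCR1 (1.31 to 2.01) and KLRC2 among neighbours in this order. The plot of levels by library shows the gap between the 3 abundant receptors and the rest.

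**Figure D1:**
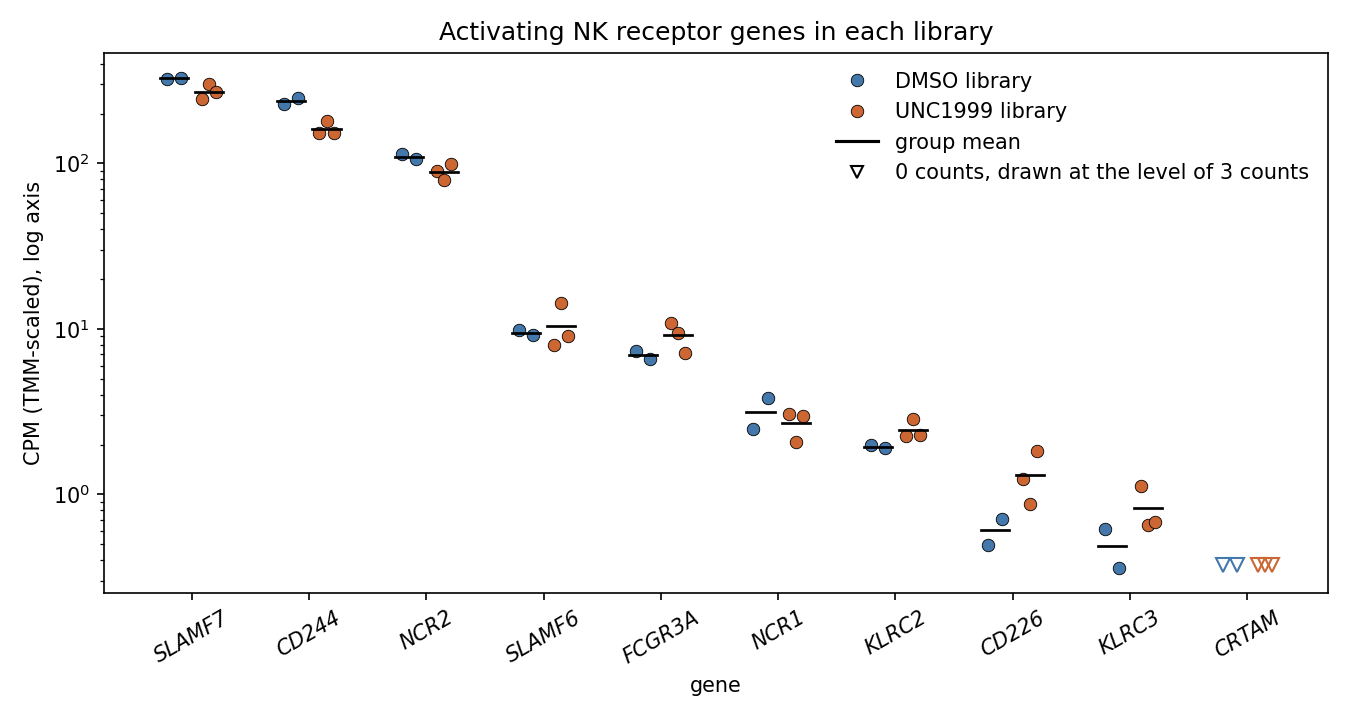
TMM-scaled CPM (log axis) of each member in the 2 DMSO and 3 UNC1999 libraries, with group means as bars. SLAMF7, CD244 and NCR2 lie at 79.1 CPM or above in all libraries, the others below 15 CPM, and the open triangles mark the 0 counts of CRTAM, drawn at the level of 3 counts.

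Natural cytotoxicity receptors trigger killing of tumour and infected cells. NCR2 encodes NKp44, which appears on activated human NK cells and signals through the adaptor DAP12 (TYROBP). It had 913 and 896 counts in DMSO and 792, 726 and 872 in UNC1999, or 113 and 107 CPM against 89.4, 79.1 and 99.2 CPM. Each UNC1999 library was below both DMSO libraries, as was the case for 30.4% of tested genes. The means were 110.0 ± 4.82 CPM (SD, n = 2) and 89.3 ± 10.0 CPM (SD, n = 3). NCR2 thus fell by 0.30 on the log2 scale (SE 0.11, edgeR adjusted p = 0.0354). The call was lost in 11 of 16 alternatives, among them GC and length offsets (-0.18, edgeR adjusted p = 0.0654). Leaving out either DMSO library (edgeR adjusted p = 0.266 for replicate 1 and 0.108 for replicate 2) or UNC1999 replicate 1 (0.0993) also ended it. The value was below 0 in all 16.

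NCR1 encodes NKp46, the receptor that marks NK cells most widely. It had 20 and 32 counts in DMSO and 27, 19 and 26 in UNC1999. The groups overlapped, and the DMSO libraries (2.48 and 3.80 CPM) lay further apart than the UNC1999 range of 2.07 to 3.05 CPM. The log2 fold change was -0.23, with a 95% interval from -0.83 to 0.37 (edgeR adjusted p = 0.584), so no difference was detectable at this depth. Its sign turned with offsets (0.11) and without DMSO replicate 2 (0.11). The other receptor of this class, NKp30 (NCR3), was listed at 0 in all libraries. NCR3 lies in the major histocompatibility complex (MHC), where low counts were common: 100 of 128 protein-coding genes of that region (78.1%) had at most 5 counts over the 5 libraries, against 38.9% of 863 elsewhere on chromosome 6. The zero for NCR3 is therefore not read as absence.

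CD244, SLAMF7 and SLAMF6 belong to the SLAM family, whose members bind each other or, for CD244 (2B4), the surface protein CD48. Their genes lie in 1 cluster on chromosome 1 (GENCODE 29, GRCh38, while the authors used hg19): SLAMF6 from 160485030 to 160523262, SLAMF7 from 160739057 to 160754821 and CD244 from 160830160 to 160862855. CD244 had 1831 and 2073 counts in DMSO and 1354, 1649 and 1336 in UNC1999. In CPM these were 227 and 246 against 153, 180 and 152, with no overlap and with UNC1999 replicate 2 nearest to the controls. CD244 fell from 236.9 ± 13.5 CPM (SD, n = 2) to 161.6 ± 15.8 CPM (SD, n = 3), which is -0.55 ± 0.11 (SE) on the log2 scale, with an adjusted p of 0.000147 in edgeR. In bulk RNA, fewer transcripts per cell and fewer cells carrying them cannot be told apart. The fall was called without each of the 5 libraries in turn (-0.63 to -0.50). It was smaller with offsets, at -0.19 (95% interval -0.33 to -0.05, edgeR adjusted p = 0.0329). With offsets from the median rather than the longest transcript it was -0.29 (edgeR adjusted p = 0.00155), so its size depends on the transcript taken. CD244 lies in GC decile 6, where 50.1% of genes were called lower. The fall was called in 15 of 16 alternatives.

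SLAMF7 (CRACC), a receptor that binds itself on neighbouring lymphocytes, was the most abundant member by CPM. It had 2590 and 2774 counts in DMSO and 2155, 2769 and 2365 in UNC1999, or 322 and 330 CPM against 243, 302 and 269 CPM. All UNC1999 libraries were below both controls, again with UNC1999 replicate 2 nearest to them. The log2 fold change was -0.26, with a 95% interval from -0.49 to -0.04, and it just missed the threshold (edgeR adjusted p = 0.0592). Without UNC1999 replicate 2 it passed (-0.34, edgeR adjusted p = 0.00046). With offsets it was -0.13 (edgeR adjusted p = 0.135), and with offsets from the median rather than the longest transcript -0.27 (edgeR adjusted p = 0.00239).

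SLAMF6 (NTB-A), also self-binding, had 79 and 77 counts in DMSO and 71, 131 and 80 in UNC1999. Here UNC1999 replicate 2 was far above the other 4 libraries, at 14.3 CPM against 8.02 to 9.81 CPM. The log2 fold change of 0.15 (95% interval -0.25 to 0.54, edgeR adjusted p = 0.601; 0.17 with offsets) became -0.14 without that library. Of the other genes of the cluster, CD48 had -0.12 and LY9 -0.69, which was -0.05 without DMSO replicate 1. SLAMF1 had at most 8 counts and CD84 at most 1.

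The promoters of CD244 and NCR2, the members called lower, are shown because their CpG content can be set beside that of other promoters. Each stretch holds the 250 bases before the gene's start (RefSeq, GRCh38.p14), on the gene's own strand, with CpG dinucleotides in capitals. CD244 is at chr1:160862888-160863137 on the minus strand and NCR2 at chr6:41335358-41335607 on the plus strand.
CD244: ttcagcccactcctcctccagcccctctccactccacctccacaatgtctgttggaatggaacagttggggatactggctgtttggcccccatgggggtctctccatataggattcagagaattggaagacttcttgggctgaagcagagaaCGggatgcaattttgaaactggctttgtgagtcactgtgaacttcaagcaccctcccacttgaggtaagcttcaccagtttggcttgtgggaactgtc
NCR2: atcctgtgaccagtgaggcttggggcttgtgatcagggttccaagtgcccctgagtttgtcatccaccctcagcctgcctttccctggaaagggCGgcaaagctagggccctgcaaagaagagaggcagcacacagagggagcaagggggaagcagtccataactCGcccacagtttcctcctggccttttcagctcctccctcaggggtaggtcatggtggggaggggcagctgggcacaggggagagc
CD244 held 1 CpG and NCR2 held 2, whereas the median of 34943 such windows was 11. Only 6.08% and 14.7% of windows held fewer. Windows were at hand for 7 of the 10 members, and all 12 of them (some genes have several starts) held 0 to 8 CpG, below the median. This describes the letters of these windows and says nothing of histone marks, which were not measured.

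**Figure D2:**
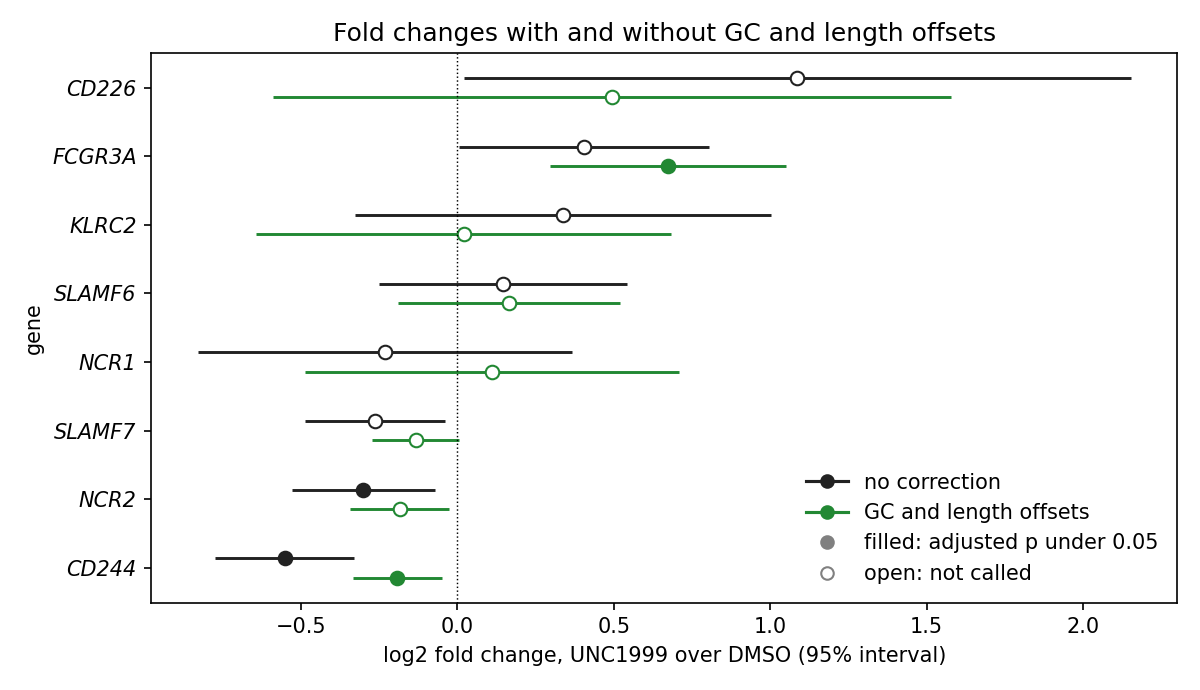
Log2 fold change of UNC1999 over DMSO with its 95% interval for the 8 tested members, without correction (black) and with GC and length offsets (green), with filled points for adjusted p under 0.05. CD244 moves from -0.55 to -0.19 and stays called, NCR2 loses its call, and FCGR3A is called at 0.67 with offsets.

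CD226 (DNAM-1) and CRTAM belong to the nectin-binding receptors. CD226 recognises PVR and NECTIN2 on target cells and competes for them with TIGIT and CD96. It had 4 and 6 counts in DMSO and 11, 8 and 16 in UNC1999. Every UNC1999 library was above both controls, as in 24.2% of tested genes, but the numbers are small. CD226 passed the filter only through UNC1999 libraries, the group where it is higher. The lack of overlap, the ratio and the test are therefore no independent support for a rise. Scaled for library size, the summed counts (10 and 35) had a ratio of 2.15 (95% exact binomial interval 1.04 to 4.87, counting error only). CD226 had 1.09 on the log2 scale (95% interval 0.02 to 2.15) and was not called (edgeR adjusted p = 0.106). It was called without UNC1999 replicate 2 (1.32, edgeR adjusted p = 0.0412). With offsets it was 0.49 (edgeR adjusted p = 0.513), and with offsets from the median transcript 0.93 (edgeR adjusted p = 0.175), not called in either. Without UNC1999 replicate 1 or 3 it did not pass the filter. CD226 has a GC content of 36.7%, and the median of its decile was 0.41.

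CRTAM, a receptor of activated killer cells for CADM1, had 0 counts in all 5 libraries. A count of 0 allows up to 3 counts, which is 0.327 to 0.372 CPM here, for counting error only. No fold change can be given for it.

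FCGR3A encodes CD16a, which binds antibody on target cells and signals through CD247 and FCER1G. It had 59 and 55 counts in DMSO and 96, 87 and 63 in UNC1999, or 7.33 and 6.54 CPM against 10.8, 9.48 and 7.17 CPM. UNC1999 replicate 3 lay between the DMSO libraries, so the groups overlapped. Without correction the log2 fold change of 0.40 (95% interval 0.0048 to 0.80) was not called (edgeR adjusted p = 0.109). With offsets it was 0.67 (95% interval 0.30 to 1.05, edgeR adjusted p = 0.00461), and with offsets from the median transcript 0.50 (edgeR adjusted p = 0.0356). Leaving out UNC1999 replicate 3 gave 0.55 (edgeR adjusted p = 0.0301). Leaving out any of the other 4 libraries gave no call, with values down to 0.27 without UNC1999 replicate 1 (edgeR adjusted p = 0.378). FCGR3A was called in 6 of 16 alternatives, and not by DESeq2 (adjusted p = 0.219). Genes in its decile (45.4% to 48.0% GC) had a median of -0.29, and 4.72% of them were called higher. The plot of members beside genes of like GC content shows this.

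**Figure D3:**
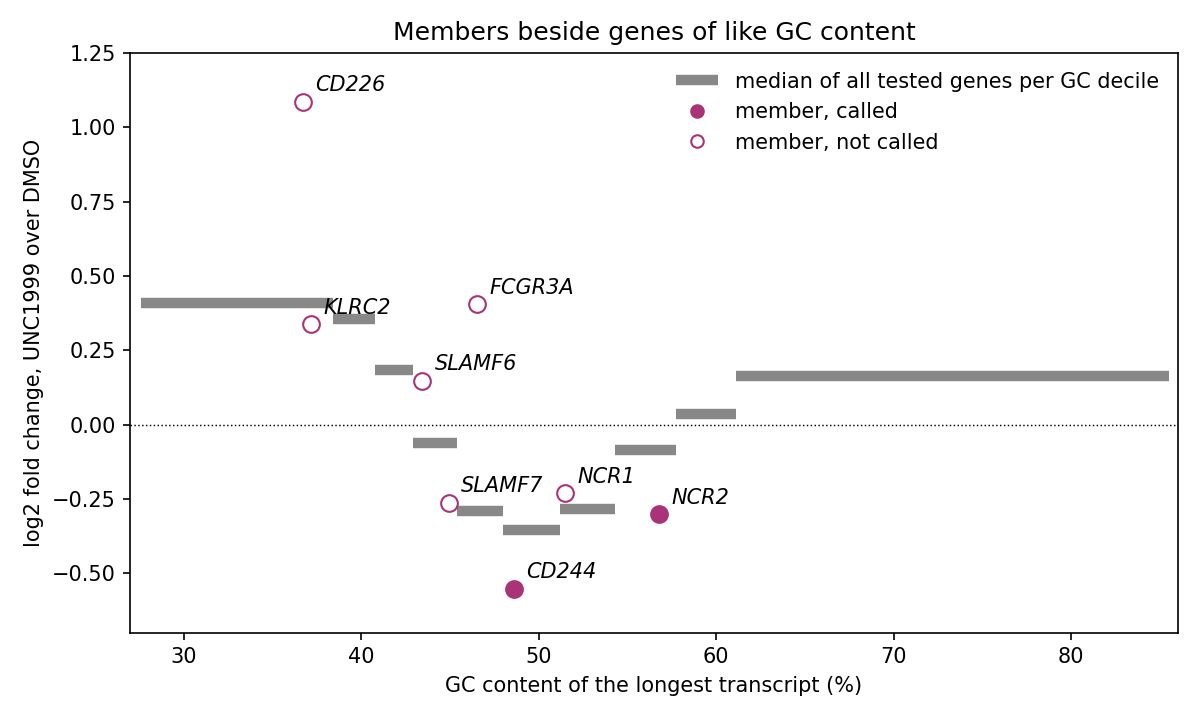
Log2 fold change against GC content of the longest transcript for the 8 tested members, with grey bars for the median of all tested genes in each GC decile. FCGR3A at 0.40 and CD226 at 1.09 lie above the medians of their deciles (-0.29 and 0.41). CD244, NCR1 and KLRC2 lie nearer to the medians of theirs (-0.36, -0.29 and 0.41).

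Reads of FCGR3A and of the KLRC genes are uncertain, since each has close copies. The stretches below show how close, with capitals where the copies differ. Each is 60 coding bases within 1 exon (GENCODE 29, GRCh38, minus strand), the earliest stretch of the gene named at the top that aligns without gaps and holds a difference. FCGR3A is at chr1:161548619-161548678 and FCGR3B, a receptor of neutrophils, at chr1:161629976-161630035.
FCGR3A: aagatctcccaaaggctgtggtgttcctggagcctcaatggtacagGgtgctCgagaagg
FCGR3B: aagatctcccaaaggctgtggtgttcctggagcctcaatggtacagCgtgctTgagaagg
KLRC2 is at chr12:10435927-10435986, KLRC3 at chr12:10420491-10420550 and KLRC1, which encodes the inhibitory NKG2A, at chr12:10451097-10451156.
KLRC2: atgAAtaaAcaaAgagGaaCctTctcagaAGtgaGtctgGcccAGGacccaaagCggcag
KLRC3: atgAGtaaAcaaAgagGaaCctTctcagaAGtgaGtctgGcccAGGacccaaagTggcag
KLRC1: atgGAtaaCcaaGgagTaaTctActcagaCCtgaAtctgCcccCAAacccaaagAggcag
In these stretches FCGR3B differs from FCGR3A at 2 bases, KLRC3 from KLRC2 at 2 and KLRC1 from KLRC2 at 14. Over aligned coding bases FCGR3A and FCGR3B were 98.7% identical, KLRC2 and KLRC3 96.1%, and KLRC2 and KLRC1 88.4%. Of all stretches of 50 bases in FCGR3A transcripts, 27.4% also occurred in FCGR3B. For KLRC2 and KLRC3, 48.2% and 63.9% occurred in another gene. FCGR3B itself had 1 to 5 counts per library.

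KLRC2 (NKG2C) and KLRC3 (NKG2E) are lectin-like receptors that pair with CD94 (KLRD1) and bind HLA-E. KLRC2 had 16 and 16 counts in DMSO and 20, 26 and 20 in UNC1999, with no overlap in CPM (1.99 and 1.90 against 2.26, 2.83 and 2.28). On the log2 scale this was 0.34 ± 0.33 (SE, edgeR adjusted p = 0.454), and 0.02 with offsets. KLRC3 had 5 and 3 counts in DMSO and 10, 6 and 6 in UNC1999. Its summed counts of 8 and 22 gave a scaled ratio of 1.69 with a 95% exact binomial interval from 0.724 to 4.39, so a difference was not detectable at this depth. The inhibitory KLRC1 of the same family had 652 and 852 counts in DMSO and 733, 928 and 790 in UNC1999 (log2 fold change 0.0020, edgeR adjusted p = 0.992), and was called lower with offsets (-0.21, edgeR adjusted p = 0.0378). KLRC1 was far above KLRC2 in every library. KLRD1, their shared partner, had -0.05 (edgeR adjusted p = 0.80) and -0.70 with offsets (edgeR adjusted p = 3.33e-05). Its annotated exons span 17404 bases, and the offset value rests on the longest transcript. How far that value depends on the transcript taken is not reported here.

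Adaptors carry the signals of these receptors. The 4 partner lists held 48 genes, of which 23 were tested, 2 were higher and 4 lower. These are 26.1% of the tested list genes, below the 35.2% called among all tested genes (15.7% higher and 19.5% lower), which also stands beside the counts of each list. With offsets 2 of 23 were higher and 7 lower, beside 15.1% and 19.1% of all genes. The share called in either direction was then above the 34.2% of all genes, so the order depends on the offsets. Among 6 adaptors, 5 had enough reads: 0 passed as higher and 1 as lower, with a median of -0.18. SH2D1B (EAT-2), which couples CD244 and SLAMF7 to activation, had 390 and 296 counts in DMSO and 277, 330 and 262 in UNC1999. The groups overlapped, and the log2 fold change of -0.37 (edgeR adjusted p = 0.0277; -0.53 with offsets) became -0.12 without DMSO replicate 1 (edgeR adjusted p = 0.661). It was not called without UNC1999 replicate 1 or 3 either (edgeR adjusted p = 0.0786 and 0.0933). CD247, the most abundant adaptor by CPM (not per kilobase of exon, where HCST was higher), had 163.9 and 164.0 CPM in DMSO and 146.8, 147.0 and 141.4 CPM in UNC1999, below both controls but not called (-0.18, edgeR adjusted p = 0.203; -0.06 with offsets). TYROBP, the adaptor of NCR2 and KLRC2, had only 1 to 7 counts per library and was not tested. It is named after its values were seen. Since the annotation and the treatment of reads with several places are not given, its low counts are not read as absence.

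Of 17 other activating receptors and co-receptors, 8 were tested, 1 was higher and 2 were lower, with a median of -0.12. CD7, an early lymphoid surface protein that co-stimulates NK cells, rose from 51.9 and 47.8 CPM to 106.0, 69.4 and 91.7 CPM. Its log2 fold change was 0.84 ± 0.13 (SE; edgeR adjusted p = 7.38e-06; 0.68 with offsets), and it was called in all 16 alternatives. TNFRSF9 (4-1BB), a co-stimulatory receptor, fell (-0.48, edgeR adjusted p = 0.0255; -0.56 with offsets). Omitting DMSO replicate 2 ended that call (-0.24, edgeR adjusted p = 0.47), as did omitting UNC1999 replicate 2 (-0.37, edgeR adjusted p = 0.0803). LY9 also passed as lower (-0.69, edgeR adjusted p = 0.0444), a call lost with offsets (-0.61, edgeR adjusted p = 0.0705). DMSO replicate 1 decided it, with 62 counts against 30 in DMSO replicate 2 and 28, 41 and 24 in UNC1999. Without that library LY9 had -0.05 (edgeR adjusted p = 0.953); it was not called without UNC1999 replicate 1 or 3 (edgeR adjusted p = 0.0735 and 0.0991). ITGAL, the alpha chain of LFA-1 and the most abundant gene of this list by CPM, had -0.06 (edgeR adjusted p = 0.699; 0.03 with offsets).

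Of 18 ligands of these receptors, which NK cells can also carry, 6 were tested, 0 were higher and 1 was lower, with a median of 0.20. That median includes PDGFD (0.49, not called), named after its value was seen. It was over the approximate filter level in 1 DMSO library and 3 UNC1999 libraries, so it passed with the help of the group where it is higher. CLEC2B (AICL), the ligand of NKp80, had 13.9 and 18.9 CPM in DMSO and 10.8, 14.3 and 10.2 CPM in UNC1999. Its log2 fold change was -0.48 (edgeR adjusted p = 0.0225; -0.79 with offsets), and it was lost without DMSO replicate 2 (-0.24, edgeR adjusted p = 0.462), UNC1999 replicate 1 (edgeR adjusted p = 0.0747) or UNC1999 replicate 3 (edgeR adjusted p = 0.0829). CD48, the partner of CD244 and the most abundant ligand gene by CPM, had 347 and 393 CPM in DMSO and 320, 374 and 326 CPM in UNC1999 (-0.12, edgeR adjusted p = 0.413; -0.23 with offsets, edgeR adjusted p = 0.00603). In CPM without offsets the groups overlapped for CD48, whereas they did not for its receptor. With offsets both genes were called lower, CD48 at -0.23 and CD244 at -0.19, so the contrast depends on the offsets. On the opposite strand AL121985.1 covers 29.8% of the CD48 exon bases, and with the strand setting unknown their reads cannot be told apart.

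Among 7 inhibitory partners, 4 were tested, 1 was higher and 0 were lower, with a median of -0.05. CD96, which binds PVR as CD226 does, rose from 84.1 and 100.2 CPM to 145.3, 166.1 and 147.5 CPM. Its log2 fold change was 0.73 ± 0.12 (SE; edgeR adjusted p = 6.63e-06; 0.60 with offsets), and CD96 was called in all 16 alternatives. TIGIT, a further receptor for PVR, was not called, with -0.10 (edgeR adjusted p = 0.629). Its sign turned with offsets (0.25, edgeR adjusted p = 0.114), and it is named after its value was seen. In counts, CD96 had 677 to 1524 per library and CD226 4 to 16.

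**Figure D4:**
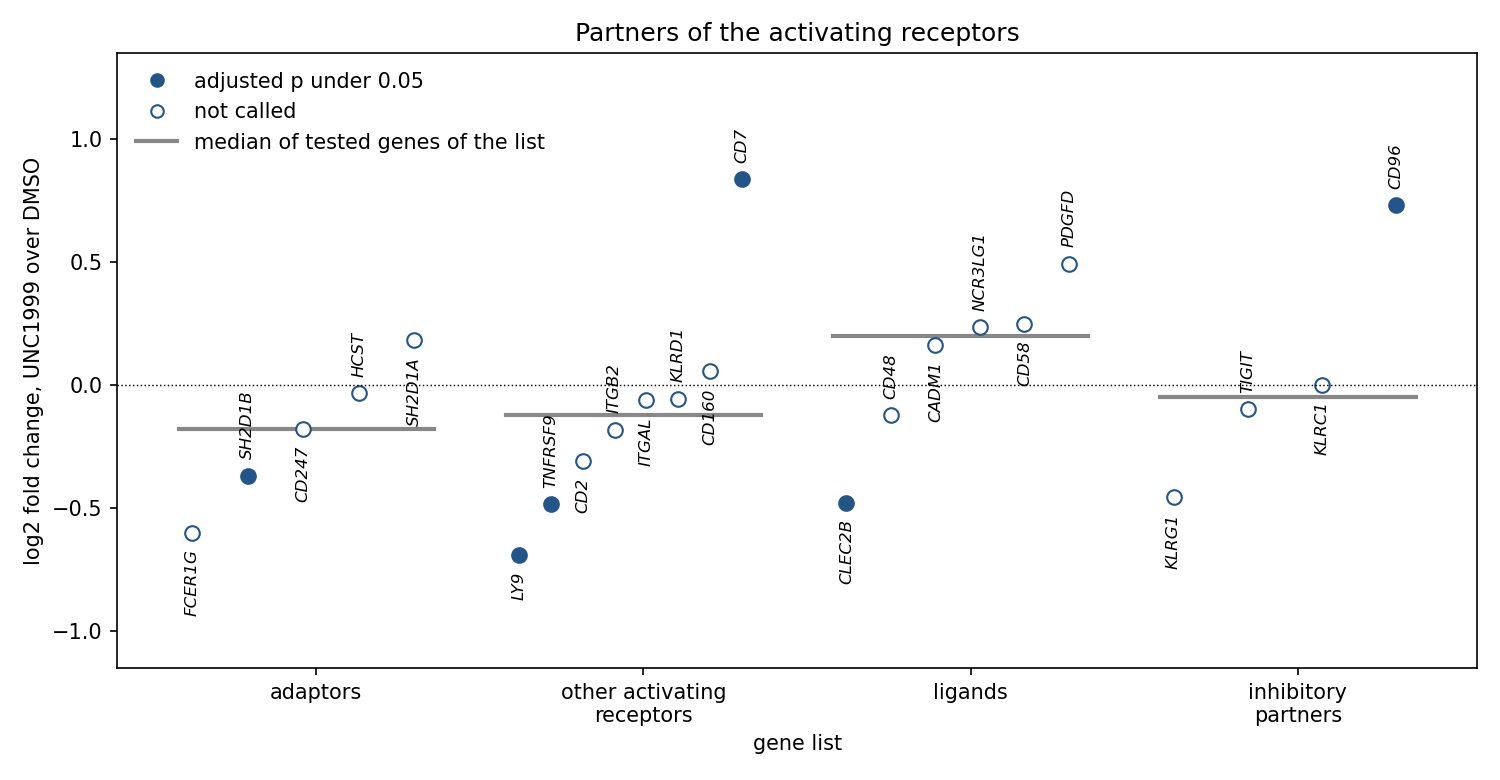
Log2 fold change of UNC1999 over DMSO for the 23 tested genes of the 4 partner lists, with filled points for adjusted p under 0.05 and grey lines for list medians. CD7 (0.84) and CD96 (0.73) are the genes called higher, and SH2D1B, TNFRSF9, LY9 and CLEC2B those called lower.

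Profiles like those of the called members were common. The log2 CPM of each gene, centred on its mean over the 5 libraries, was compared by root-mean-square difference. DDX55 (0.0188), SNRPG (0.0226) and MTERF4 (0.0237) were nearest to CD244, and 821 tested genes lay within 0.1 of it. For NCR2 the nearest were TGM5 (0.0149), GSE1 (0.0198) and AKAP8L (0.0269), with 458 genes within 0.1. The plot with each library left out shows how far each member's value rests on 1 library.

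**Figure D5:**
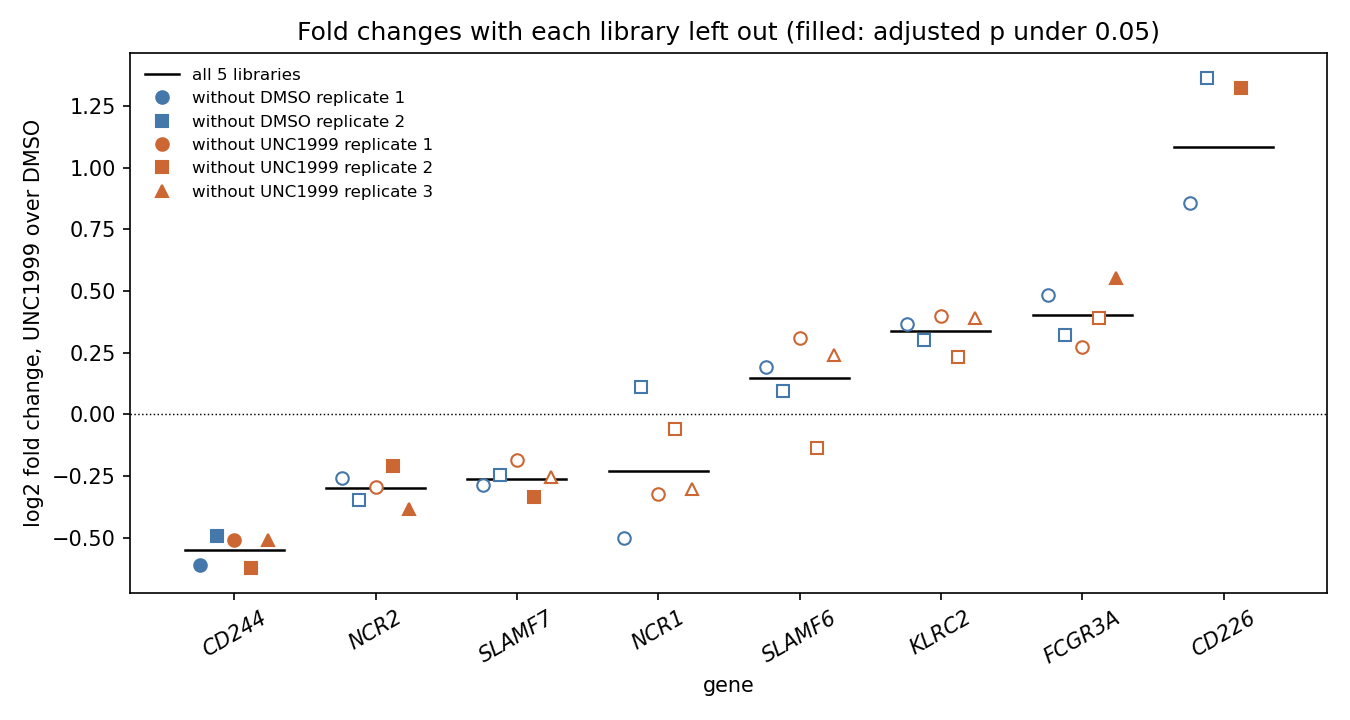
Log2 fold change of the 8 tested members with all 5 libraries (line) and with 1 library left out (points, filled where the adjusted p was under 0.05). CD244 is filled throughout, from -0.63 to -0.50, while NCR1 crosses 0 without DMSO replicate 2 and SLAMF6 without UNC1999 replicate 2; 2 points are missing for CD226, which did not pass the filter there.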

How the data were processed

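The deposited values are raw counts of reads, in 1 table with 57221 rows of gene symbols and a column for each library, matched to the groups by name. Per the submitters' processing notes, the tools were STAR 2.7.9, fastp, edgeR 3.34.0 and HTSeq 0.13.5, on hg19, with no settings named. Per the labels' protocols, Trizol was used for RNA and a NEB Ultra kit for libraries. The sources used here do not give the annotation, the strand setting or how reads with several places were treated.

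Rows passing filterByExpr (13075) entered edgeR 4.0.16 (R 4.3.3) with TMM factors. UNC1999 was compared with DMSO by glmQLFit and glmQLFTest, and p was adjusted over all of these rows by Benjamini-Hochberg. SE was the fold change divided by the square root of F. CPM were scaled by TMM factors of 0.954 and 0.961 (DMSO) and 1.02, 1.05 and 1.01 (UNC1999). Offsets were splines of GC content (6 degrees of freedom) and length (4) of the longest GENCODE 29 transcript, for 11026 tested rows (84.3%). On simulated counts for 13075 genes with 200 changed, 85% of those changed by 2-fold and 71% of those changed by 1.5-fold were recovered, and 3.7% of calls were unchanged genes. The simulated counts had no GC trend, no library standing apart and far fewer changed genes than the 4603 called here. These rates therefore need not hold for the data.

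Alternatives were DESeq2 1.42.0 (size factors, and its Wald test), no or upper-quartile factors, robust dispersion, no filter or a stricter one (a mean of 50 counts, and 1 CPM in 2 libraries), a replicate block, offsets, both together, and each library left out. Offsets from the median transcript were added after the data were seen. Members and lists were chosen with earlier results of these data known. The text names all members and, of each list, up to 3 called genes with the smallest p and the most abundant tested gene. EZH2, EZH1, close copies of members and KLRD1 are given besides; KLRD1 and the copies were added after values were seen. Profiles were compared for the called members with the highest and lowest fold change.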

Additional observations from a re-analysis of the deposited data

How the results depend on the processing

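The members gave 0 calls higher and 2 lower, and 16 alternatives were run. One member was called higher without normalization factors, with a replicate block, with offsets, with both, and with offsets from the median transcript: FCGR3A each time (5 of the alternatives), where the count was 1. One was called lower with DESeq2 size factors, no factors, upper-quartile factors, no filter, the stricter filter, the DESeq2 Wald test and offsets (CD244, a count of 1), and with the block and offsets together (NCR2, a count of 1). With 1 library left out, 0 to 1 members were higher and 1 to 3 lower. The list genes gave 2 higher and 4 lower. The lower count was 0 without factors, with upper-quartile factors and with the DESeq2 Wald test, 1 with the replicate block, 7 with offsets and 8 with offsets from the median transcript. With 1 library left out the higher count stayed at 2 and the lower count ran from 1 to 4.

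The sign turned for NCR1 with offsets (0.11), with the block and offsets (0.022) and without DMSO replicate 2 (0.11; -0.50 to 0.11 with each library left out), for SLAMF6 without UNC1999 replicate 2 (-0.14; -0.14 to 0.31) and for KLRC2 with offsets from the median transcript (-0.025), an alternative chosen after the data were seen. Where not shown by the alternative's own construction, the cause was not tested. Without factors the median of all genes moved from -0.01 to 0.09; relative to it CD244 had -0.54 and NCR2 -0.29. Whether replicate numbers pair the libraries could not be told. Deviations from the group means correlated at 0.0658 for number 1 and 0.0381 for number 2, over only 2 shared numbers. With 2 DMSO libraries the deviations of each mirror those of the other, so these values cannot exclude pairing. The replicate block moved the calls over all genes from 4603 to 4022, gave FCGR3A 0.55 (edgeR adjusted p = 0.0247) and, together with offsets, left CD244 at -0.18 (edgeR adjusted p = 0.1). Leaving out a DMSO library leaves 1 in that group, whose spread is then taken from the UNC1999 group. Members with under about 100 counts per library are limited by depth.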

Other observations

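Genes in this paragraph are named after their values were seen. KLRK1, the gene of NKG2D, had 4 and 3 counts in DMSO and 8, 7 and 11 in UNC1999. Each UNC1999 library was above both controls, as in 24.2% of tested genes, but KLRK1 had too few reads to be tested. Its summed counts of 7 and 26 gave a scaled ratio of 2.28 with a 95% exact binomial interval from 0.964 to 6.22. A difference was therefore not detectable at this depth. In GENCODE 29 the read-through gene KLRC4-KLRK1 covers 62.7% of the KLRK1 exon bases on the same strand, and that gene had 2 to 6 counts per library. The sources used here do not give how such reads were counted. HLA-E, the ligand of the KLRC receptors, was at 0 counts in all libraries, as was MICB, and BAG6 had 0 to 7 counts. These 3 lie in the MHC region from HLA-F to HLA-DPB1, where 90 of 128 protein-coding genes had no counts, against 228 of 863 elsewhere on chromosome 6.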
